A study of Mus musculus with 6 samples.

Results

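The genes described here write, remove or guide the methylation of cytosine in mouse DNA. They are 9 of the 48709 genes in the count table, chosen by name for their function, with no measured value in the rule: the DNA methyltransferases Dnmt1, Dnmt3a and Dnmt3b, the DNMT1 partner Uhrf1, the dioxygenases Tet1, Tet2 and Tet3, and the DNA glycosylases Tdg and Mbd4. Of the 9 genes, 7 had enough counts for a test of the CHD4-APR peptide against the CTRL peptide, and Dnmt3a and Tet1 did not. Dedicated methyl-CpG readers are not among them, although UHRF1 reads hemimethylated DNA and MBD4 carries a methyl-CpG-binding domain. The readers were followed as a separate list.

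The RNA came from G1E-ER4, a mouse line of immature red cell precursors that began as embryonic stem cells. Its GATA-1, joined to part of a hormone receptor, becomes active when tamoxifen is given, and the cells then mature. Both groups of 3 libraries came from this line and carried the same fusion, and both received a peptide joined to the HIV-1 Tat nuclear localization sequence at 10 μM for 2 h and then tamoxifen for 28 h. The CHD4-APR peptide copies an aliphatic stretch of CHD4, the remodeling ATPase of the NuRD and ChAHP complexes, and was made to compete with CHD4 for its partners, whereas the CTRL peptide carries alanines in its place. The comparison asked which transcripts differed when CHD4 contacts were targeted during GATA-1-driven maturation. The tamoxifen concentration is 100 nM in the culture protocol and 100 μM in the design text, and which one applied to these libraries cannot be told apart. No group without a peptide or without tamoxifen was analysed here, so the values do not show how these genes moved during maturation itself. The sources do not say whether the 3 libraries of a group came from separate cultures, and the p-values therefore measure the spread between these libraries, which may be technical.

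DNA methylation is copied at replication, when UHRF1 binds hemimethylated CpG sites behind the fork and recruits DNMT1, while DNMT3A and DNMT3B place methyl groups on sites that had none. TET enzymes oxidize methylcytosine, TDG cuts out its most oxidized forms, and base excision repair then restores cytosine. MBD4 removes thymine left opposite guanine when methylcytosine is deaminated. Erythroid maturation is known for a gradual genome-wide loss of DNA methylation, and TET2, TET3 and DNMT3A are known regulators of blood cell formation.

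The libraries held between 41687482 and 49784177 counts. All 12 erythroid markers, globin genes among them, were above 1 CPM (counts scaled to a common library size) in every library, and their summed level was 72200 to 77400 normalized CPM in the CTRL group and 61600 to 65700 with the CHD4-APR peptide, with no overlap. The Gata1 counts include any from the introduced fusion. Markers of other lineages were low: the summed level was 47.6 to 50.2 CPM in the CTRL group and 41.2 to 46.8 with the CHD4-APR peptide for 8 megakaryocyte genes, among which Gp1bb, Ppbp and Vwf were at 0, and 4.07 to 4.96 against 3.28 to 4.49 for 8 myeloid genes. The 6 mast cell and basophil genes, the 6 lymphoid genes and the 7 embryonic stem cell genes were each under 1 CPM in every library. Whether the lower erythroid sum with the CHD4-APR peptide had a part in the values below was not tested, and in bulk RNA fewer cells of a type and less RNA per cell cannot be told apart.

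The promoters of these genes can themselves carry methylation, so their CpG content is shown first. RefSeq windows of 250 bases before to 50 after each transcription start (build GRCm38.p6) were found for all 9 genes, 14 windows in all. The median ratio of observed to expected CpG was 0.802 in these windows and 0.384 over the 32851 windows of the table. Tet2 was the richest, with 57 CpG in its window and a ratio of 1.17, above 99.2% of all windows. The first Dnmt1 start was the poorest, with 2 CpG and a ratio of 0.101, above 13.5% of windows, whereas its start 3 had 33 and a ratio of 0.91. The 150 bases upstream of the Tet2 start (chr3:133544391-133544540, minus strand), of the first Dnmt3a start (chr12:3806830-3806979, plus strand) and of the first Dnmt1 start (chr9:20959889-20960038, minus strand) are shown to let the densest window, that of a gene without counts and the sparsest window be read against each other. None of these 3 stretches overlaps an annotated exon, and capitals mark each CpG.
Tet2: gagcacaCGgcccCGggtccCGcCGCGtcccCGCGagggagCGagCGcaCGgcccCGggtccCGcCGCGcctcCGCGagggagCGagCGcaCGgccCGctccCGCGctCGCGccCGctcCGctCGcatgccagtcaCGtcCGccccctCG
Dnmt3a: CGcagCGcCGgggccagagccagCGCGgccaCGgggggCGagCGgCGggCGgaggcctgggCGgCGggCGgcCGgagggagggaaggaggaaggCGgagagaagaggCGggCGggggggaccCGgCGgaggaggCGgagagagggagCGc
Dnmt1: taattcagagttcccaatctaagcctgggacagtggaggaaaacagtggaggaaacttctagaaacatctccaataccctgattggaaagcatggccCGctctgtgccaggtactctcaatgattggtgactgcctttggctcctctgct
These stretches held 30, 21 and 1 CpG. The RNA data do not show whether any of them was methylated, nor which Dnmt1 start was used.

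The letters TTTNNCGC, which resemble the E2F motif of S-phase promoters, occurred on either strand in 5.17% of all windows and in 3 of the 14 windows here, namely both Uhrf1 starts and Dnmt1 start 3. The letters contain a CpG, and the median CpG ratio was 0.802 in the 14 windows against 0.384 over all windows. Whether CpG content alone gives such a share was not tested. The maintenance pair was the only source of matches among the 9 genes. A 30-base stretch around a match is shown for each, in the order of the first Uhrf1 start (chr17:56303270-56303299), the second Uhrf1 start (chr17:56304117-56304146) and Dnmt1 start 3 (chr9:20952574-20952603, minus strand), with the match in capitals.
Uhrf1 first start: gccccacttgcTTTCTCGCttcccgccaca
Uhrf1 second start: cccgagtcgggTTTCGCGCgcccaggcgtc
Dnmt1 start 3: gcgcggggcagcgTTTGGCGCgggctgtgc
The window of Dnmt1 start 3 held 3 matches, of which the other two lie on the opposite strand and overlap each other. The letters of the GATA motif, AGATAA with T also allowed in first place and G in last, occurred on either strand in 29.8% of all windows and in 1 of the 14, the first Dnmt1 start. These matches describe letters and not bound sites.

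Levels were compared between genes as normalized CPM per kilobase of exons, averaged over the 6 libraries. Dnmt1 stood first at 25.9, with libraries between 23.96 and 27.1, and Uhrf1 followed at 17.8, with libraries between 16.04 and 19.5. These levels lay above 83.1% and 76.8% of the genes tested. Tet3 had 9.41, Tdg 4.87, Mbd4 2.78, Tet2 1.00 and Dnmt3b 0.714 on the same scale, and Tet1 and Dnmt3a were at or next to 0. Among the 7 genes tested no gene's range over the 6 libraries overlapped that of its neighbour in this order, the closest pair being Tet2 and Dnmt3b at 1.4-fold, and the order of the 9 genes was the same when the longest transcript gave the length. This order counts each gene without near-identical copies, which are described with the genes below. With copies added, Tdg had 9.70, with libraries between 8.68 and 11.2, which overlapped the range of Tet3 (6.57 to 12.4) and put Tdg just above it, and the range of Dnmt3b, 0.743 to 0.957, overlapped that of Tet2 (0.844 to 1.28). Maintenance methylation was thus the best represented activity at the RNA level, and 1 gene dominated the counts of each enzyme family. Of the summed DNMT level per kilobase, Dnmt1 made up 97.4% ± 0.514 in CTRL libraries and 97.2% ± 0.407 in CHD4-APR libraries (SD, n = 3 each). The DNMT shares rest on Dnmt3a being listed at 0, whose source was not tested. Tet3 made up 89.5% ± 0.881 and 90.9% ± 0.298 of the summed TET level in the same order.

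**Figure D1:**
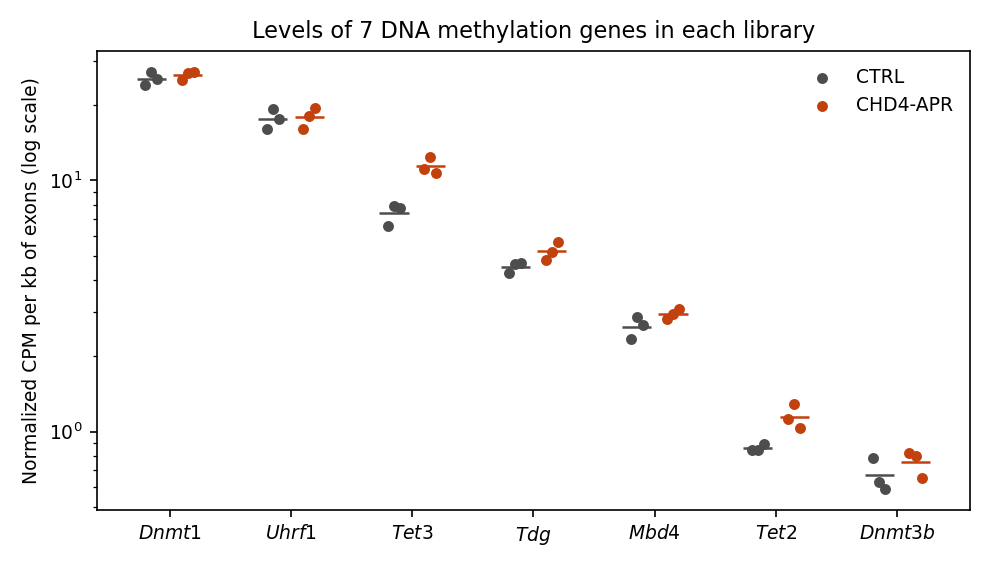
Normalized CPM per kilobase of exons (log axis) of the 7 genes tested, with 1 point per library, CTRL in grey and CHD4-APR in orange, and bars at the group means. The genes run from Dnmt1 near 25.9 to Dnmt3b near 0.714, and the groups of Tet3, Tdg and Tet2 do not overlap.

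With the CHD4-APR peptide, Tet3, Tet2 and Tdg rose, none of the 7 genes tested fell, and Dnmt1, Uhrf1, Dnmt3b and Mbd4 did not pass the test. The test was edgeR's quasi-likelihood test over all 12722 genes with enough counts, with Benjamini-Hochberg adjusted p-values (FDR) and a threshold of 0.05. Of all genes tested, 38.3% passed it, 20.4% as higher and 17.8% as lower with the CHD4-APR peptide, so that 3 of 7 higher stands beside a background of 20.4%. In 25.0% of all genes tested every CHD4-APR library was above every CTRL library, and in 49.9% the groups did not overlap in either direction, as in the same 3 of these 7. The median log2 fold change of the 7 was 0.18, against -0.0118 over all genes tested, and the median absolute change of all genes tested was also 0.18. Only Tet3 passed 1.5-fold, which 4.23% of all genes tested did in either direction and 3.48% as higher.

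The changes in these libraries varied with gene length. The median exonic length was 6657 bases in genes that rose, 2596 bases in genes that fell and 3688 bases in all genes tested. A trend on exonic length and GC content was therefore smoothed within each library and removed in a second fit, in which 11.7% of genes were higher and 16.0% lower. This turned the split from 2601 higher and 2270 lower to 1479 higher and 2022 lower. In that fit Tet3 alone of the 7 genes rose, and their median log2 fold change was 0.0916. Tet2 and Tet3, with 16870 and 16695 bases of exons, are far longer than the median gene. Which of the fits is closer to the RNA in the cells was not tested.

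**Figure D2:**
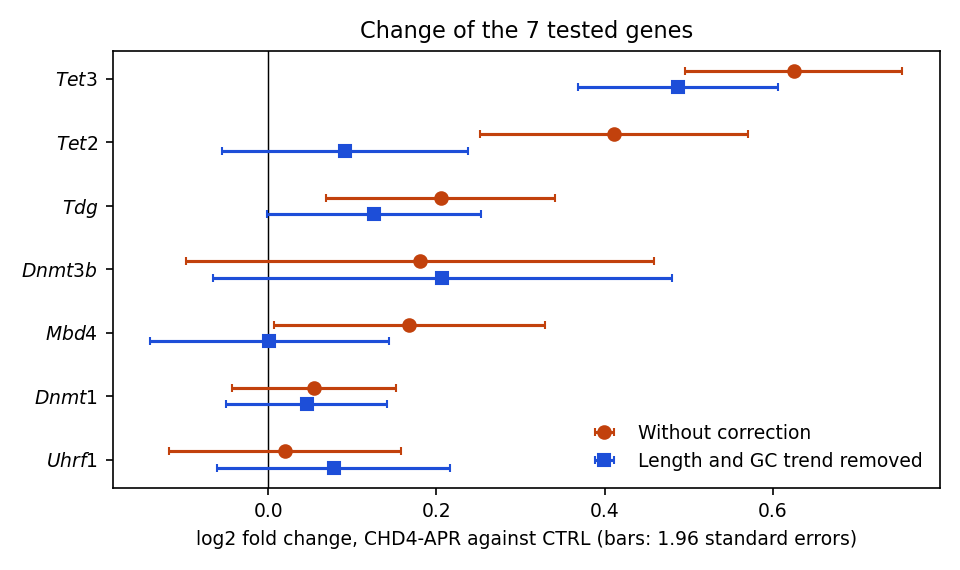
Log2 fold changes of CHD4-APR against CTRL for the 7 genes tested, without correction (orange circles) and after removal of the trend on length and GC content (blue squares), with bars of 1.96 standard errors. Tet3 lies above 0 in both, at 0.62 and 0.49, whereas Tet2 moves from 0.41 to 0.092.

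Among the writers, Dnmt1 (minus strand of chromosome 9, 20907209 to 20959888 in GRCm38), the maintenance methyltransferase, had 177, 199 and 187 normalized CPM in CTRL replicates 1, 2 and 3, and 186, 198 and 200.2 in CHD4-APR replicates 1, 2 and 3. The groups overlapped, and the means were 187 ± 10.95 and 195 ± 7.91 (SD, n = 3 each). The log2 fold change was 0.055 (standard error 0.0496, edgeR FDR 0.417), with an approximate 95% interval of -0.0425 to 0.152. With 1 library left out it ran from 0.014 to 0.098 and did not pass the test. Changes larger than about 0.152 in either direction thus lay outside the interval for this deeply counted gene.

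Uhrf1 (plus strand of chromosome 17, 56303321 to 56323486) had 68.3, 82.1 and 74.8 normalized CPM with the CTRL peptide and 68.4, 77.0 and 83.0 with the CHD4-APR peptide. The 3 libraries of each group spread over the same range. The log2 fold change was 0.020 (standard error 0.0703, edgeR FDR 0.85), with an interval of -0.117 to 0.158, and 94.2% of the genes tested changed more. With 1 library left out it ran from -0.044 to 0.095, and its sign turned without CTRL replicate 1 or CHD4-APR replicate 3. Gm5648, a processed pseudogene with 98.3% identity to Uhrf1 over 1590 bases, held only 0 to 6 counts.

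Dnmt3b (plus strand of chromosome 2, 153649450 to 153687730), a de novo methyltransferase, had 4.01, 3.22 and 3.02 normalized CPM with the CTRL peptide and 4.18, 4.09 and 3.35 with the CHD4-APR peptide. The groups overlapped, with the highest CTRL library above the lowest CHD4-APR library. The log2 fold change was 0.18 (standard error 0.142, edgeR FDR 0.346). Its interval of -0.0982 to 0.458 was the widest of the 7 and included a change as large as that of Tet2. The neighbouring paralog Dnmt3c, 93.3% identical over 1655 bases, held 13 to 37 counts. Summed with Dnmt3c, the log2 fold change was 0.061 (edgeR FDR 0.741). Without the sum and with 1 library left out, that of Dnmt3b alone ran from 0.10 to 0.31 and did not pass the test.

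Dnmt3a (plus strand of chromosome 12, 3806007 to 3914443), the other de novo methyltransferase, was listed at 0 counts in each of the 6 libraries. With 0 of 267900381 counts, a floor of 3 counts allows up to 0.0112 CPM over all libraries, and 0.0603 to 0.072 CPM in a single library. Per kilobase of exons, the mean Dnmt3b level over the 6 libraries was 1060-fold above the Dnmt3a floor over all libraries. Against the floor of a single library the fold is smaller. The zero was not limited to this gene. All 5 annotated genes between the end of Dtnb and the start of Adcy3, an interval of 351 kb (3781797 to 4133102), were at 0 in every library: Dnmt3a, its antisense transcript Dnmt3aos, Pomc, Efr3b and Dnajc27. The flanking Dtnb held 0 to 5 counts per library and Adcy3 0 to 3, whereas Asxl2 on one side held 3383 to 5449 and Cenpo on the other held 746 to 884. Zeros in all libraries were found for 38.9% of the 21695 protein-coding genes in the table. The processed pseudogene Dnmt3a-ps1 was also at 0. Whether these zeros reflect the cells or the making of the table was not tested, so the floor and the fold above it describe the table used here, and counts of 0 were the same in both groups, so no comparison of the peptides could be made.

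**Figure D3:**
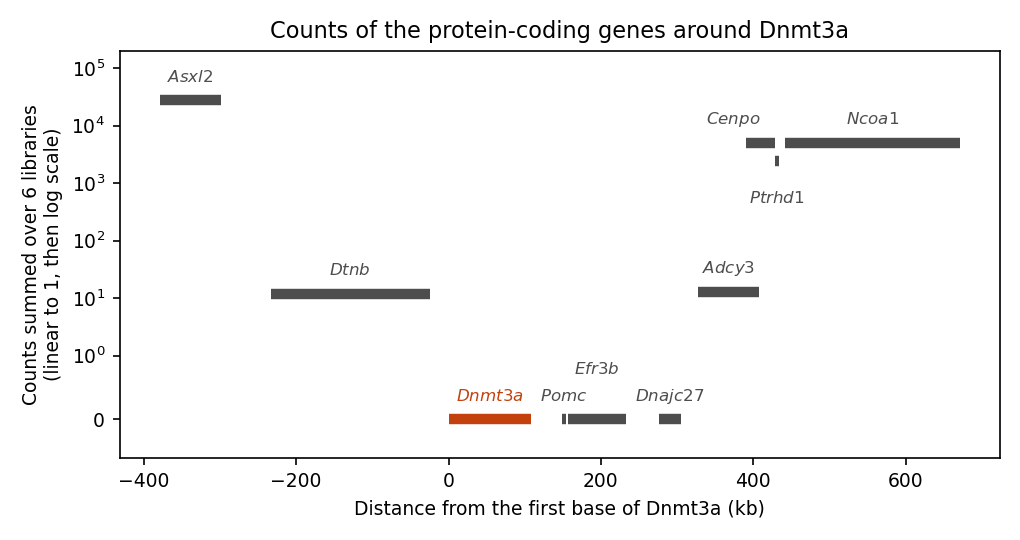
Counts summed over the 6 libraries (linear up to 1, then log scale) for the protein-coding genes around Dnmt3a, drawn by distance from its first base in kb, with each bar spanning a gene. Dnmt3a, Pomc, Efr3b and Dnajc27 lie at 0, Dtnb and Adcy3 at 12 and 13 counts, and the genes beyond them at 2385 or more.

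Among the erasers, Tet3 (minus strand of chromosome 6, 83362373 to 83459084) rose the most of the 9 genes. It had 110, 132 and 129 normalized CPM with the CTRL peptide and 186, 207 and 179 with the CHD4-APR peptide. Every CHD4-APR library was above every CTRL library, and the lowest CTRL value was that of replicate 1. The means were 124 ± 12.2 and 191 ± 14.7 (SD, n = 3 each), a 1.54-fold difference (log2 fold change 0.62, standard error 0.0659, edgeR FDR 3.66e-06). Only 5.74% of the genes tested changed more in either direction. After the length and GC trend was removed, the log2 fold change was 0.49 (edgeR FDR 3.66e-05), and over 18 alternatives it lay between 0.49 and 0.68 with an FDR under the threshold in each. The overlapping transcript 5430434F05Rik, on the same strand and without a shared exon, held 7 to 30 counts.

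Tet2 (minus strand of chromosome 3, 133463679 to 133545139) had 14.3, 14.2 and 15.0 normalized CPM with the CTRL peptide and 18.9, 21.6 and 17.4 with the CHD4-APR peptide. The groups did not overlap, and the CTRL libraries lay closer together than the CHD4-APR libraries. The means of 14.5 ± 0.434 and 19.3 ± 2.15 (SD, n = 3 each) gave a 1.33-fold difference and a log2 fold change of 0.41 (standard error 0.0815, edgeR FDR 0.000882). This call ended when the length and GC trend was removed, with a log2 fold change of 0.092 (edgeR FDR 0.407), and it held when any one library was left out, at 0.33 to 0.49. Its promoter was the CpG-dense stretch printed first above. The antisense transcript Gm42567 shares 43 exonic bases with Tet2 and held 1 to 6 counts.

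Tet1 (minus strand of chromosome 10, 62804570 to 62908996) had 1 count in CTRL replicate 2 and 0 in the other libraries. It was too low for a test, and its share of the summed TET level reached at most 0.015% in any library. The TET transcripts of these cells were therefore those of Tet3 and Tet2, which per kilobase stood at 9.41 and 1.00 CPM.

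Of the glycosylases, Tdg (plus strand of chromosome 10, 82629828 to 82650799) had 23.0, 24.9 and 25.1 normalized CPM with the CTRL peptide and 25.9, 27.8 and 30.5 with the CHD4-APR peptide. The groups did not overlap but lay close, with CTRL replicate 3 just below CHD4-APR replicate 1. The log2 fold change was 0.21 (standard error 0.0696, edgeR FDR 0.0282), a 1.15-fold difference, and 43.7% of the genes tested changed more. The call ended on removal of the length and GC trend (0.13, edgeR FDR 0.174). It also ended without CTRL replicate 1 (0.17, edgeR FDR 0.0809), CTRL replicate 3 (0.23, FDR 0.0502), CHD4-APR replicate 2 (0.21, FDR 0.0594) or CHD4-APR replicate 3 (0.15, FDR 0.147).

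Tdg has near-identical copies, among which its reads could have been split. The processed pseudogenes Gm9855, Gm5597 and Tdg-ps share 99.2%, 99.3% and 98.7% of their bases with Tdg over 1194, 1193 and 2968 bases, and held 682 to 980, 122 to 218 and 146 to 227 counts. Summed with these copies, the CTRL libraries had 46.6, 51.7 and 49.2 normalized CPM and those with the CHD4-APR peptide 51.0, 54.2 and 60.0, so that the groups then overlapped, and the log2 fold change was 0.16 (edgeR FDR 0.0471). Glt8d2, on the opposite strand, shares 367 bases with the last part of Tdg and held 3 to 6 counts.

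Mbd4 (minus strand of chromosome 6, 115840697 to 115853371) had 12.3, 15.0 and 14.03 normalized CPM with the CTRL peptide and 14.9, 15.5 and 16.2 with the CHD4-APR peptide. CTRL replicate 2 lay above CHD4-APR replicate 1, so the groups overlapped. The log2 fold change was 0.17 (standard error 0.082, edgeR FDR 0.119). Without CTRL replicate 2 it passed the test (0.24, edgeR FDR 0.0389), and after removal of the length and GC trend it was 0.0014 (edgeR FDR 0.99). Gm44206, an antisense transcript sharing 264 exonic bases with Mbd4, held 1 to 6 counts.

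Ratios within a library do not depend on the scaling between libraries, and 4 were compared, each from CPM per kilobase. The summed TET level was 0.300, 0.318 and 0.333 of the summed DNMT level in CTRL replicates 1, 2 and 3, and 0.473, 0.495 and 0.422 in CHD4-APR replicates 1, 2 and 3. All CHD4-APR libraries were above all CTRL libraries, a 1.46-fold difference in the ratio (log2 difference 0.55, exact two-sided permutation p = 0.1, adjusted over the 4 ratios 0.2). With 3 libraries against 3 this test cannot give a p below 0.1. Since Dnmt1 and Tet3 make up nearly all of these sums, the ratio is close to that of Tet3 to Dnmt1, and like the DNMT shares it takes Dnmt3a at 0. The ratio of Tet2 to Tet3 was 0.107 to 0.129 in the CTRL libraries and 0.0962 to 0.103 with the CHD4-APR peptide, again without overlap (log2 difference -0.22, exact permutation p = 0.1, adjusted 0.2). Tet2 was thus lower relative to Tet3 in every CHD4-APR library than in any CTRL library, although the test cannot pass the threshold at this number of libraries. Uhrf1 to Dnmt1 had a mean ratio of 0.693 and 0.677 (exact permutation p = 0.7) and Tdg to Mbd4 one of 1.74 and 1.77 (exact permutation p = 0.6, adjusted 0.7), with overlapping libraries in both. Summed with its copies, Tdg stood at 3.52 and 3.48 times Mbd4 in CTRL and CHD4-APR libraries.

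**Figure D4:**
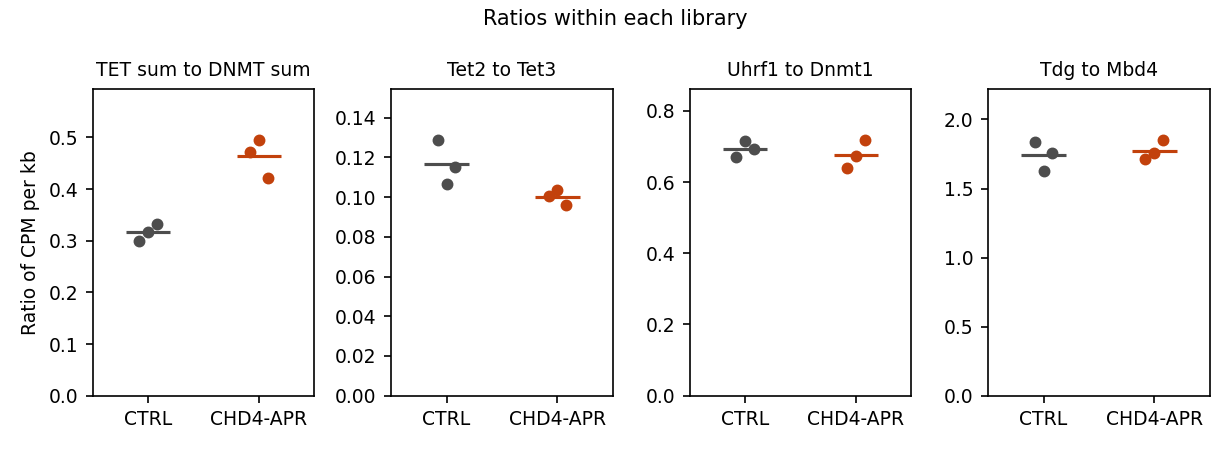
Ratios of CPM per kilobase within each library (linear axes from 0) for CTRL in grey and CHD4-APR in orange, with bars at the group means. The TET to DNMT ratio lies at 0.300 to 0.333 in CTRL and 0.422 to 0.495 in CHD4-APR, and the Uhrf1 to Dnmt1 and Tdg to Mbd4 ratios overlap between the groups.

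The other genes of the pathway were taken from 8 lists of 167 genes, of which 109 could be tested. Of these 109, 35 passed, beside 38.3% of all genes tested. They were 25 that rose and 10 that fell, beside 20.4% and 17.8% of all genes. Of the 9 genes listed as methyl-CpG readers, 5 rose and 2 fell, or 77.8% beside 38.3% of all genes tested. Their median log2 fold change was 0.24. The 7 that passed include Mbd3, Mbd5 and Mbd6, and whether each listed gene binds methylated DNA was not tested. Zbtb33, which encodes the methyl-CpG-binding zinc-finger repressor Kaiso, rose from 10.8 ± 0.869 to 18.2 ± 1.74 normalized CPM (SD, n = 3 each), a log2 fold change of 0.75 (edgeR FDR 8.21e-06). Its relative Zbtb38 rose by 0.59 on the log2 scale (edgeR FDR 0.000863). Both also rose after the length and GC trend was removed, by 0.47 (edgeR FDR 0.00024) and 0.32 (edgeR FDR 0.0284). Mbd5 rose by 0.32 on the log2 scale (edgeR FDR 0.00131), but the corrected value was 0.0015 and did not pass. Mbd3, the NuRD subunit that binds methylated DNA poorly, fell by 0.27 on the log2 scale (edgeR FDR 0.00231), and Mbd6 fell by 0.22. Neither passed after the correction. Zbtb4, which also rose, and Mbd1 and Mbd2, which did not pass, had log2 fold changes of 0.24, 0.054 and -0.089, and these 3 are named after their values were seen. With the correction 2 of these 9 listed genes changed, beside 27.6% of all genes, so that the excess over the background was not seen in that fit.

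Of 16 cofactors of methylation, 13 could be tested, 4 rose and 0 fell, 30.8% beside 38.3% of all genes, with a median log2 fold change of 0.059. Hells, a chromatin remodeler needed for methylation of repeats, rose from 11.6 ± 1.67 to 15.7 ± 1.84 CPM (log2 fold change 0.44, edgeR FDR 0.00352). Uhrf2, the paralog of Uhrf1, rose by 0.28, and the histone H3 lysine methyltransferases Nsd1 and Setd2, whose marks help to place DNMT3 enzymes, rose by 0.19 and 0.17. None of these 4 rose once the length and GC trend was removed, and Setd2 was then lower, at -0.12 (edgeR FDR 0.0187). The catalytically inactive DNMT3 partner Dnmt3l held 0 to 3 counts and Dppa3, which displaces UHRF1 in the germline, was at 0.

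Of 14 TET cofactors and regulators, 9 could be tested, 3 rose and 0 fell, 33.3% beside 38.3% of all genes, with a median of 0.16. Ogt, the O-GlcNAc transferase that binds TET2 and TET3, rose from 238 ± 12.8 to 307 ± 9.34 CPM (SD, n = 3 each), a log2 fold change of 0.37 (edgeR FDR 1.99e-05). Dcaf1, a substrate receptor of the CRL4 ubiquitin ligase that modifies TET proteins, rose by 0.44 (edgeR FDR 9.24e-06) and was the one gene of this list to rise also after the correction, by 0.23 (edgeR FDR 0.00117). The helicase gene Ascc3 rose by 0.34. The untested genes were Cxxc4 and Zscan4c at 0, Idh2 and Cebpa at 0 to 1 counts and Wt1 at 0 to 4, named after their values were seen. Of the other isocitrate dehydrogenases, which supply or consume the TET co-substrate, Idh1 and Idh3a did not pass (log2 fold changes 0.079 and 0.16).

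Base excision repair acts downstream of TDG. All 19 genes were tested, 0 rose and 3 fell, 15.8% beside 38.3% of all genes. In the corrected fit 2 rose and 3 fell, beside 11.7% and 16.0% of all genes. Xrcc1, the scaffold of single-strand break repair, fell from 83.5 ± 3.09 to 67.1 ± 1.77 CPM (log2 fold change -0.31, edgeR FDR 9.99e-05), and Parp2, which senses such breaks, fell by 0.19 (edgeR FDR 0.0108). Both also fell in the corrected fit, by 0.23 and 0.22. Gadd45g, linked to repair-coupled demethylation, fell by 0.32 (edgeR FDR 0.00983) and did not pass after the correction.

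Of 19 genes of the methionine and folate cycle, which supplies the methyl donor S-adenosylmethionine, 17 were tested, 6 rose and 1 fell, 41.2% beside 38.3% of all genes, with a median of -0.03. Mtr, methionine synthase, rose by 0.26 (edgeR FDR 0.00046), Ahcyl2 by 0.20, Ahcyl1 by 0.19, and Mat2a, an S-adenosylmethionine synthetase gene, from 62.6 ± 4.76 to 71.3 ± 1.05 CPM (log2 fold change 0.19, edgeR FDR 0.0134). Shmt2, the mitochondrial serine hydroxymethyltransferase, fell by 0.16. None of these 5 passed after the correction, in which 0 of the list rose and 3 fell, beside 11.7% and 16.0% of all genes. Without CHD4-APR replicate 1, 4 genes of this list passed.

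The S-phase genes were followed because Dnmt1 and Uhrf1 are transcribed in S phase. Of 30, 5 rose and 2 fell, 23.3% beside 38.3% of all genes, and the median was -0.016. Ccne2, a cyclin of S-phase entry, rose from 2.45 ± 0.614 to 4.26 ± 0.0578 CPM (log2 fold change 0.79, edgeR FDR 0.000979). Mcm4, a replicative helicase subunit, rose by 0.39, and Pola1 and Rrm1 by 0.38 and 0.21, whereas Ccne1 and Gins4 fell by 0.17 and 0.16. Leaving out CTRL replicate 3 or CHD4-APR replicate 3 brought the count of 7 down to 4, and leaving out CHD4-APR replicate 2 brought it to 3. After the correction 2 rose and 1 fell, beside 11.7% and 16.0% of all genes.

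Germline genes that DNA methylation is known to silence were at or near 0 in both groups. Of 30 germline genes, 18 were at 0 in every library, as were 38.9% of all protein-coding genes in the table. Only Xlr3a among the germline genes, with 8 to 29 counts, could be tested (log2 fold change -0.28, not past the threshold). Dazl, Sycp2, Mael and Tex19.1 were among the germline genes at 0, named after their values were seen. Of 30 imprinted genes, 14 were at 0 in every library, which stands beside the same 38.9% of protein-coding genes. H19, Igf2 and Meg3 were among these 14, likewise named after their values were seen. Of the 11 imprinted genes tested, 2 rose and 2 fell, 36.4% beside 38.3% of all genes, with a median of -0.12. Peg3, a paternally expressed zinc-finger gene, rose from 64.2 ± 9.35 to 89.5 ± 8.18 CPM (log2 fold change 0.48, edgeR FDR 0.000335), and the maternally expressed Igf2r rose by 0.27 (edgeR FDR 0.000242). Gnas and Snrpn fell by 0.17 each. All 4 kept their direction and passed after the correction, Peg3 at 0.23 and Igf2r at 0.18. In that fit 2 of the 11 rose and 3 fell, beside 11.7% and 16.0% of all genes. The addition was Kcnq1ot1 at -0.48 (edgeR FDR 3.96e-05), named after its values were seen. Without CHD4-APR replicate 2, 2 imprinted genes passed. DNA methylation itself was not measured in these cells.

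**Figure D5:**
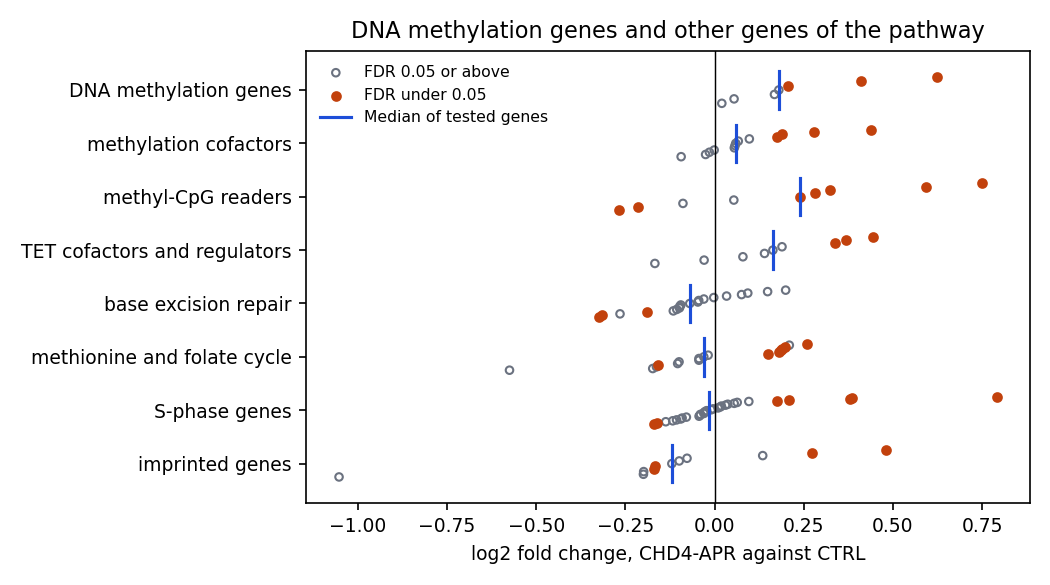
Log2 fold changes of CHD4-APR against CTRL for the DNA methylation genes and for the genes tested in each other list except the germline list, with filled orange points for an FDR under 0.05, open points otherwise, and a blue bar at each median. The 7 DNA methylation genes lie at or above 0 with a median of 0.18, the readers spread from -0.27 to 0.75, and base excision repair has 3 called genes, all below 0.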

How the data were processed

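PolyA RNA of 6 libraries was sequenced, and per the methods the authors trimmed reads with Cutadapt, aligned them with STAR 2.7.10a to GRCm38 and counted them with featureCounts. The deposited values are raw counts per Ensembl gene. Strandedness and the treatment of multimapping reads are not given in the sources used here. Another 2 columns were not used.

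Genes passing edgeR 4.0.16 filterByExpr were scaled by TMM and compared by its quasi-likelihood test in R 4.3.3, with Benjamini-Hochberg adjustment over all 12722. Standard errors are the log2 fold change over the square root of F, and intervals span 1.96 standard errors. Alternatives used DESeq2 1.42.0, limma 3.58.1 (voom), other scalings and filters, protein-coding genes only, a table without hemoglobin genes, blocking on replicate number, removal of length and GC trends fitted with mgcv 1.9.3 (12677 genes), each library left out, and counts summed with copies found by blastn 2.17.0 (at least 90% identity over 300 bases), the last added after the copies were seen. The fits were tested on simulated data. GENCODE M21 named 48349 of the 48709 identifiers, and promoter windows are those of RefSeq. Floors of 3 counts cover counting error only.

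All 9 genes are named, and from each other list up to 4 genes higher and 4 lower, those with the largest changes under the threshold. Some genes of the lists are not reported here by name. The genes and lists were chosen with earlier results of these data known. All replicate pairs differed beyond sampling noise (chi-square per degree of freedom 4.61 to 15.5), so none was a copy.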

Additional observations from a re-analysis of the deposited data

How the results depend on the processing

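Dnmt1, Dnmt3b and Tet3 kept their direction and their side of the threshold in each of 18 alternatives. Tet2 lost its call with the length and GC correction (0.092) and with that correction and a replicate block together (0.091, FDR 0.37), and Tdg likewise (0.13, and 0.12 with FDR 0.0989). In both of these settings, and at 1.5-fold, 1 of the 9 genes passed, and at 1.5-fold 538 of all genes. The list genes passing numbered 21 with the correction, against 35. With 1 library left out, the ranges of log2 fold change were 0.014 to 0.098 for Dnmt1, 0.15 to 0.26 for Tdg, 0.092 to 0.24 for Mbd4 and -0.044 to 0.095 for Uhrf1, whose sign turned when CTRL replicate 1 (-0.044) or CHD4-APR replicate 3 (-0.040) was left out, 2 to 4 of the 9 genes passed, and 3703 to 4928 of all genes. The log2 difference of the Uhrf1 to Dnmt1 ratio was 0.032 with the correction and ran from -0.079 to 0.0055 with 1 library left out, and that of Tdg to Mbd4 was 0.12 with the correction (exact permutation p = 0.1, the smallest possible), against 0.029, ran from -0.020 to 0.070 with 1 library left out, and was -0.012 when Tdg was summed with its copies, which left 7 of 9 genes at their place in the order of levels. The TET to DNMT difference stayed between 0.40 and 0.61 and that of Tet2 to Tet3 between -0.40 and -0.15. Over the alternatives the FDR ranged from 2.67e-06 to 0.407 for Tet2, 0.00886 to 0.174 for Tdg, 0.0389 to 0.99 for Mbd4 and 3.86e-34 to 6.04e-05 for Tet3. Upper quartile scaling gave 2419 genes higher and 2601 lower. Whether replicate numbers pair the libraries was not settled. Correlations of same-numbered deviations were low, at 0.0697, 0.0552 and -0.035, yet the same number was the best match in 2 of 3. A replicate block gave 5214 genes and 3 of the 9 genes, 4012 and 1 with the correction. The block lowered the standard error of Uhrf1 from 0.0703 to 0.0516 and that of Tet3 from 0.0659 to 0.05. With the block, 5 TET cofactors and 5 base excision repair genes passed, against 3 each, and no call of the 9 genes changed. Dnmt3b, Tet2 and Mbd4, with group means under 20 CPM, carry wider errors than Dnmt1. The causes of these shifts were not tested. The germline list had 0 calls in each of 17 alternatives.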
